A study of Mus musculus with 2 samples.

Results

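The genes described here are 53 genes of the non-collagen extracellular matrix, its elastic fibres and the proteins that stromal cells secrete into it. They were taken by name: every non-control probe was used whose gene name in the array files is one of the 53, which gave 119 of 56605 probes and 146 of 59305 non-control spots. Of 37074 gene names on the array these are 53. The samples were macrophages of the peritoneal cavity taken from mice without MeXis (MeXis null), a long noncoding RNA whose gene lies near that of the cholesterol transporter Abca1, and from wild-type (WT) mice. Both genotypes carry the strain label bl6. The cells of both were in DMEM with serum, the labels name no ligand or other treatment, and they do not say how the deletion was made or how old the animals were. RNA of 3 samples was pooled for each genotype and hybridised to 1 single-colour Agilent array per genotype.

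The extracellular matrix is the protein mesh outside cells. Fibrillin microfibrils and elastin form its elastic fibres, lysyl oxidases cross-link elastin and collagen, small leucine-rich proteoglycans coat collagen fibrils, and laminins, nidogens and perlecan build the basement membranes under epithelia, mesothelium and vessels. Fibroblasts, mesothelial cells and smooth muscle cells are the main makers of most of these proteins, whereas macrophages are known to make some of them, fibronectin among others. A peritoneal sample can hold such cells, and in pooled RNA more cells of a type and more RNA per cell cannot be told apart.

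Values are processed signals in arbitrary units, and differences are given on the log2 scale, MeXis null minus WT, with each array first scaled to its 75th percentile. With 1 array per genotype no difference has a replicate check and no p-value can be given. The only measures of error were the scanner's own, 0.21 at the median, and the spread between repeat spots of a probe, a median SD of 0.47 over 285 probes. For a gene read from a single spot, 0.91 (1.88-fold) was taken as the limit of that spread. Each gene was read from the probe whose mean signal was highest, and counts used a size of 2-fold. A probe well above background on 1 array only has a bound. It is written as "at least" where the dim signal lay under that array's lowest signal well above background. Where the dim signal lay above it, the bound equals the measured difference and is no lower limit. The probe for the MeXis transcript, named AI427809 in the files, read 8.44 on MeXis null and 12.3 on WT which was too dim on both arrays to check the labels.

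Most of the measured matrix genes had the higher signal on the MeXis null array. Of 44 measured genes, 18 were higher in MeXis null by 2-fold or more, 2 were lower by as much, and 24 lay within 2-fold. Among all 17569 measured gene names 9.17% were higher by 2-fold or more and 5.08% lower by as much. With a loess fit of the difference on level these shares were 7.04% and 7.35%, and 15 matrix genes were higher and 3 lower. Over the 33 matrix genes above background on both arrays the median difference was 0.77, with 27 above 0 and 6 below 0. Over all 15482 such genes the median was 0.06, with 8374 above 0 and 7108 below 0. The matrix gene differences ran from -0.57 (Ltbp4) to 2.09 (Sparc), and 15 of the 33 exceeded the limit of repeat spots, all of them higher. A further 3 genes, Fmod, Prelp and Sfrp2, were above background on MeXis null only. Eln, Loxl3, Lum, Mfap2, Nid2, Sparcl1, Tnxb and Vcan were above background on WT only. The remaining 9, Aspn, Fbn2, Lama2, Ltbp1, Mfap5, Pdgfrb, Sfrp1, Thbs2 and Tnc, were not well above background on MeXis null or WT.

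**Figure D1:**
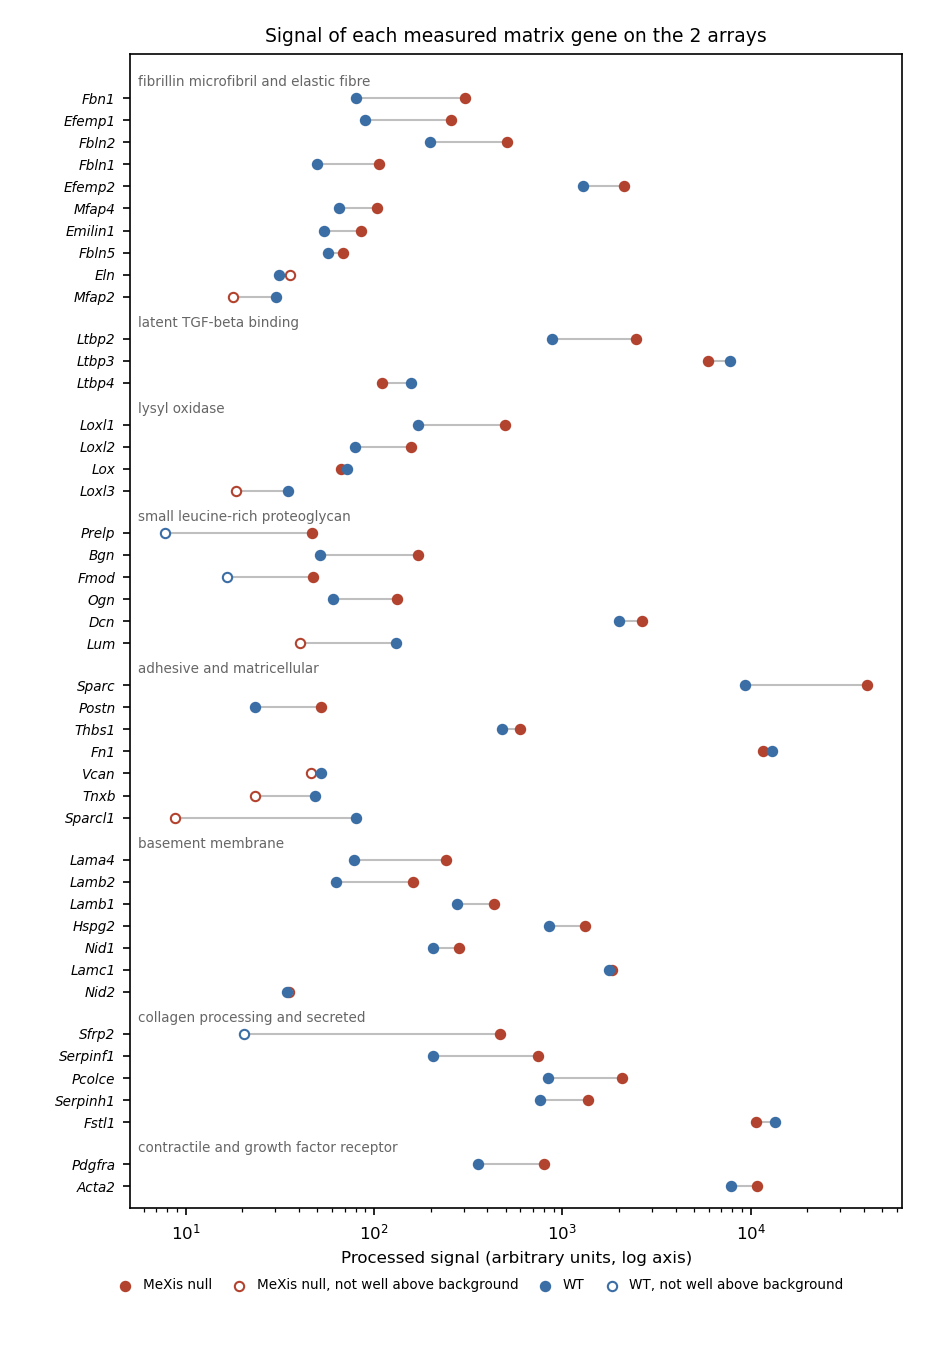
Processed signal (log axis) of the 44 measured matrix genes on the MeXis null array (red) and the WT array (blue), grouped by role; open circles were not well above background. Signals before scaling are shown, and in most rows the red circle lies to the right, with Lum and Sparcl1 the clearest exceptions.

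The position of a spot on the array and its brightness were set beside these differences. After subtraction of the median difference of the 100 nearest spots (local surface correction), 15 matrix genes passed 2-fold upward and 2 downward, against 5.08% and 3.85% of all genes, and their median was 0.83 against -0.03 over all genes. Fbln2, Ogn, Pdgfra and Postn were then under 2-fold and Lamb1 above it. Over 11 alternatives that kept the 2-fold size and required no minimum signal, Fbln1 dropped under 2-fold in 7, Ogn in 6, Postn in 4, Pdgfra in 2, and Fbln2, Fmod, Lamb2 and Prelp in 1 each. The other 10 of the 18 dropped in none of them. Among those, Bgn, Efemp1, Fbn1, Lama4 and Sfrp2 had WT signals under 100 and fell out where a signal of 100 was required. Not all of the 11 could drop a gene. The series matrix held the same values as the scanner files, and lifting the filter on dim probes can only add genes. Keeping outlier spots changed only 2 spots of matrix genes. Scaling by another percentile, the median or spike-in probes shifted all genes by a constant. By mean signal of the 2 arrays, 4 of 8 matrix genes under 100 were at least 2-fold higher, 8 of 13 from 100 to 1000, and 3 of 12 from 1000 up. The shares over all genes in these ranges were 11.9%, 8.68% and 5.56%. Dim values leaned toward MeXis null on the whole array: probes above background on neither array had a median difference of 0.67. The lowest signal well above background was 27.3 on MeXis null and 12.1 on WT.

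**Figure D2:**
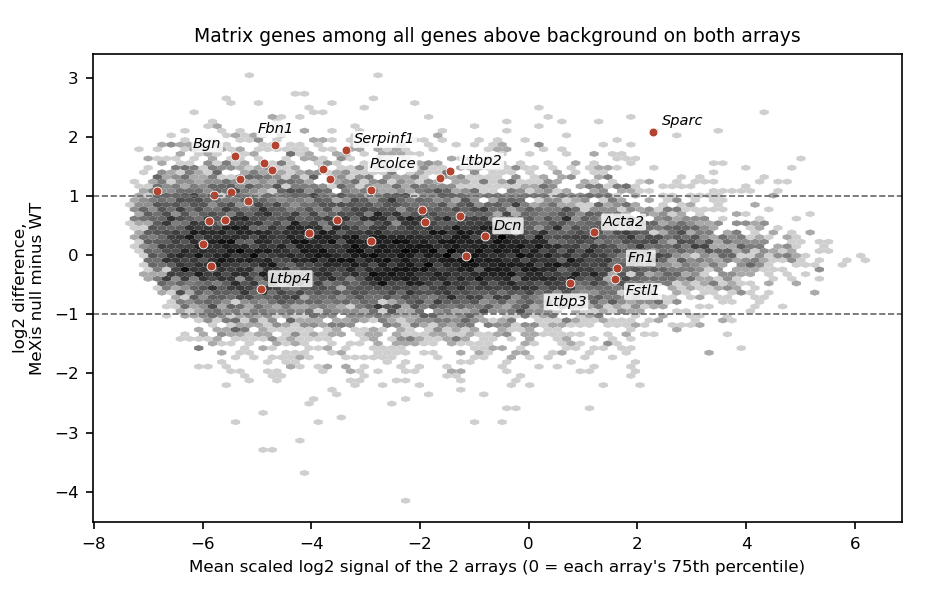
Difference (log2, MeXis null minus WT) against the mean scaled log2 signal of the 2 arrays, with the density of the 15482 measured genes in grey and the 33 matrix genes as red points; dashed lines mark 2-fold. Of the matrix genes, 27 lie above 0 and none lies below the lower dashed line. Of all 15482 genes, 8374 lie above 0.

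Among the genes of fibrillin microfibrils and elastic fibres, 4 of 10 measured were higher in MeXis null by 2-fold or more, 0 were lower by as much, and all 8 above background on both arrays lay above 0 (median 0.84). Fbn1, which encodes fibrillin-1, the core protein of microfibrils, read 306 on MeXis null and 80.5 on WT, a 3.62-fold difference (1.85). Its other probe above background lies 144 bases away in the genome. It read 153 on MeXis null and 26.8 on WT, where it was not well above background, a measured difference of 5.42-fold. Both Fbn1 probes thus gave the same direction. They lie on chromosome 2, minus strand, at chr2:125126583-125126642 and chr2:125126727-125126786 (mm9, as the files give it). The first 30 of the 60 bases of each are shown because they define what the Fbn1 values measure.
Fbn1, probe read for the gene: tgttaaacatctacaccaaatggtagtgga
Fbn1, other probe: tcacttatgagtatggtgcagtacatgtaa

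The fibulins, which bridge microfibrils, elastin and basement membranes, differed in size on the probes read for the gene. Efemp1 (fibulin-3) read 258 on MeXis null and 90.2 on WT, 2.72-fold higher, and its other probe read 53.8 on MeXis null against 10.5 on WT, at least 4.24-fold higher. Fbln2 read 510.3 on MeXis null and 199.8 on WT (2.43-fold, or 0.84 on the log2 scale after local surface correction against 1.28 before it). Fbln1 read 106 on MeXis null and 49.8 on WT, 2.03-fold higher, but at 0.02 with normexp background correction and 0.87 with loess scaling, with 39.3 on MeXis null against 21.3 on WT on its other probe. Efemp2 and Fbln5, fibulins known to be needed for elastic fibre assembly, lay under 2-fold on the probes read for the gene. Efemp2 (fibulin-4) read 2140.2 on MeXis null and 1289.9 on WT, a difference of 0.66 that became -0.38 after local surface correction. The other Efemp2 probe read 119.5 on MeXis null and 46.1 on WT, at 1.30 and 1.21 after that correction, so the direction for Efemp2 depends on the probe and on the correction. Fbln5 read 68.7 on MeXis null and 57.1 on WT (0.20), and 44.0 on MeXis null against 26.05 on WT on its other probe (0.69).

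Proteins attached to microfibrils lay inside the spread of repeat spots. Mfap4 read 104 on MeXis null and 65.6 on WT (0.60). Emilin1, a glycoprotein of the elastin and microfibril interface, read 85.2 on MeXis null and 54.3 on WT (0.58, and 1.00 after local surface correction). Elastin itself (Eln) was above background on WT only, at 35.8 on MeXis null and 31.2 on WT, and no fold is given because the higher value is the one not well above background. Mfap2, a small microfibril protein, was also above background on WT only, at 17.8 on MeXis null and 30.1 on WT, with a bound of 1.16-fold lower. Fbn2 and Mfap5 stayed below 10 on both arrays and were not measured.

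The latent TGF-beta binding proteins, relatives of the fibrillins, did not share a direction. Ltbp2, which binds fibrillin microfibrils and not latent TGF-beta, read 2471 on MeXis null and 881 on WT, a 2.67-fold difference (1.42, or 1.08 after local surface correction). Its other probe was above background on MeXis null only, at 70.8 on MeXis null against 8.91 on WT, at least 5.57-fold higher. The members that hold latent TGF-beta lay below 0. Ltbp3 read 5912 on MeXis null and 7806 on WT (-0.47), and its other probe read 163 on MeXis null against 219.6 on WT (-0.50). Ltbp4 read 111 on MeXis null and 157 on WT (-0.57), which was -0.23 after local surface correction. Both differences are inside the 0.91 limit. Ltbp1 was not well above background, at 17.6 on MeXis null and 10.5 on WT.

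Of the lysyl oxidases, the enzymes that cross-link collagen and elastin, 1 of 4 measured was at least 2-fold higher. Loxl1, the family member tied to elastin, read 494 on MeXis null and 172 on WT, 2.74-fold higher (1.46) and still above 2-fold after local surface correction. Loxl2 read 158 on MeXis null and 79.8 on WT (0.91), while its other probe read 98.9 on MeXis null against 85.9 on WT (0.13). The gap between the 2 Loxl2 probes lay inside the 0.91 limit, and both lay above 0. Lox read 67.1 on MeXis null and 72.3 on WT, a difference of -0.18 (0.21 with normexp background correction). Loxl3 was above background on WT only, at 18.5 on MeXis null and 34.8 on WT, with a bound of 1.34-fold lower.

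**Figure D3:**
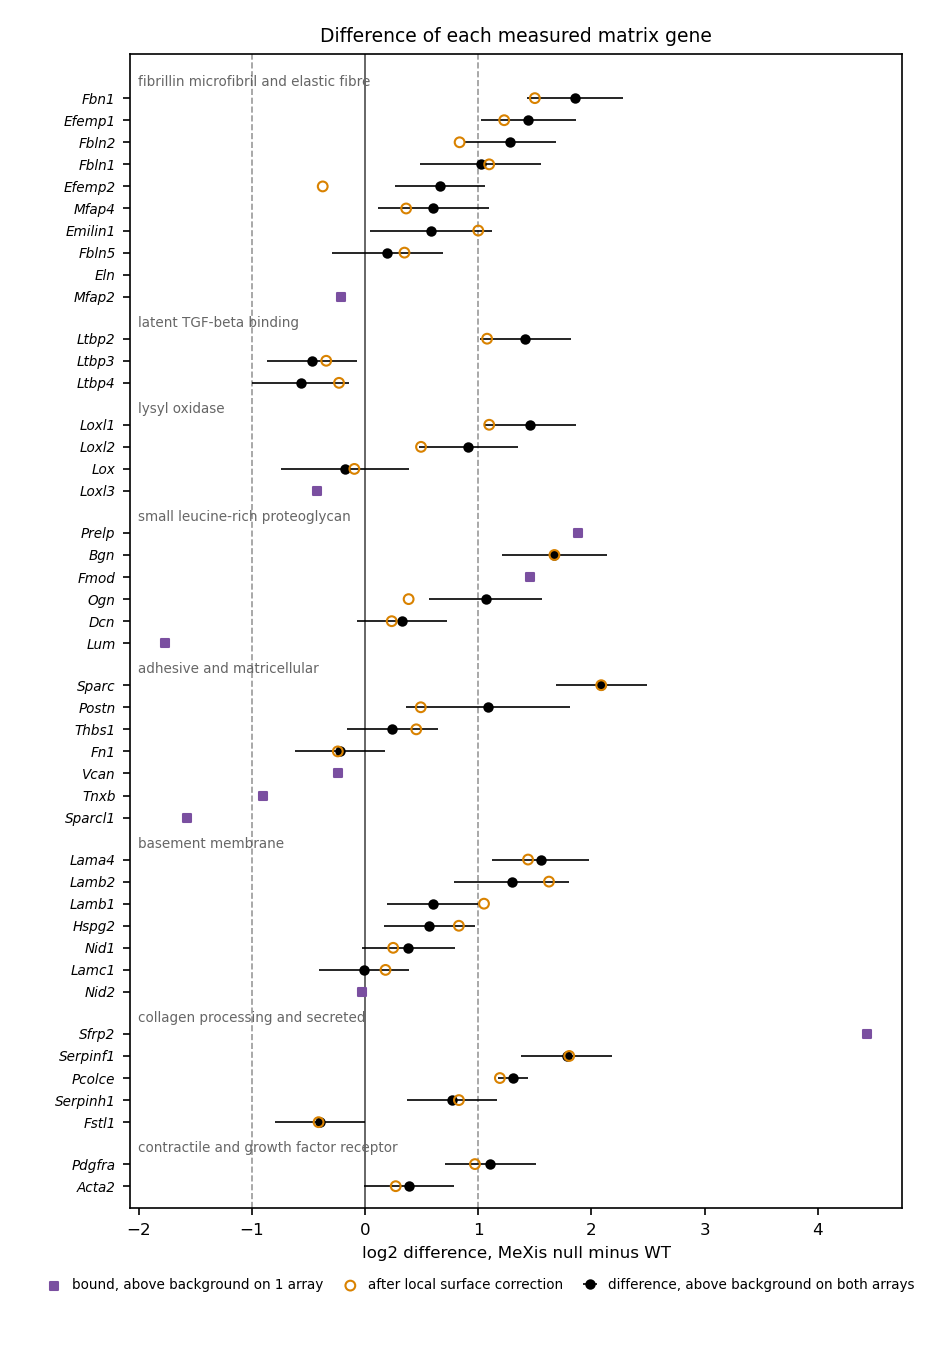
Difference (log2, MeXis null minus WT) of each measured matrix gene by role: black points with bars of the 95% range of the scanner error for genes above background on both arrays, purple squares for the bounds of genes above background on 1 array, and orange circles for the difference after local surface correction. Sfrp2 lies furthest right, Lum and Sparcl1 lie beyond the dashed 2-fold line on the left, Efemp2 crosses 0 with the correction, and Eln has no point because no fold is given.

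Small leucine-rich proteoglycans, which bind collagen fibrils and set their spacing, held differences in opposite directions. Of 6 measured, 4 passed 2-fold upward and 1 downward in MeXis null. Biglycan (Bgn) read 172 on MeXis null and 51.5 on WT, a difference of 1.67 (3.19-fold) that was the same after local surface correction. Prelp, a proteoglycan of cartilage and basement membranes, was above background on MeXis null only, at 46.9 on MeXis null against 7.81 on WT, at least 3.69-fold higher. With normexp the Prelp difference was 0.66, under 2-fold. Fibromodulin (Fmod) was likewise above background on MeXis null only, at 47.8 on MeXis null against 16.6 on WT, 2.74-fold higher as measured. With normexp the Fmod difference was 0.53. The direction of these 3 genes was the same. Osteoglycin (Ogn) read 133 on MeXis null and 60.4 on WT, 2.09-fold higher, but was at 0.38 after local surface correction against 1.07 before it. Decorin (Dcn), a fibroblast proteoglycan that binds TGF-beta, read 2641 on MeXis null and 2009.6 on WT, a difference of 0.32 inside the spread of repeat spots. Asporin (Aspn) was not well above background on MeXis null or WT.

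Lumican (Lum), the proteoglycan that shares collagen binding with fibromodulin, went the other way. It was above background on WT only, at 40.3 on MeXis null and 131 on WT, 3.40-fold lower as measured. Its difference of -1.77 was -1.95 after local surface correction and -0.82, under 2-fold, with normexp. The value rests on a single spot per array. Its probe lies at chr10:97035210-97035269 (mm9, plus strand), and the first 30 of its 60 bases are shown because Lum is 1 of the 2 matrix genes at least 2-fold lower.
Lum: taagcatttgcacggttacttagtgaaact

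Adhesive and matricellular proteins, which link cells to the matrix or modify that contact, held the highest difference above background on both arrays. Sparc, a collagen- and calcium-binding matricellular protein, read 41529.8 on MeXis null and 9304 on WT, 4.25-fold higher, and its difference of 2.09 was unchanged by local surface correction. The other Sparc probe, which spans 2658 bases of genome and so crosses a splice junction, read 4479 on MeXis null and 2169 on WT, a difference of 0.98 (1.28 after that correction). Both probes exceeded the 0.91 limit. They differed from each other by 1.11, but that limit is set for 1 spot, and a gap between 2 probes varies more. By the median of its probes Sparc was at 1.53. The probes lie on chromosome 11, minus strand, at chr11:55208939-55208998 and chr11:55209449-55212106 (mm9), with starts 510 bases apart. The first 30 bases of each are given because the size of the Sparc difference depends on which is read.
Sparc, probe read for the gene: ggctgttccgcctggggataaggtgctaac
Sparc, junction probe: gtacatcttccctgtccactggcagtttgg

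Sparcl1 (hevin), the close relative of Sparc, was lower in MeXis null. Its probe was printed repeatedly, and 9 spots were usable on each array. On MeXis null they read 6.07 at the lowest, 7.08 at the median and 14.4 at the highest, and none of these 9 was well above background. On WT they read 35.8, 85.4 and 113, and all 9 were well above background. The signals of these spots, before scaling, did not overlap between the arrays. How many other repeatedly printed probes were so separated was not counted. The paired differences ran from -4.29 to -1.39 with a mean of -3.28 ± 0.89 (SD over 9 spots). Because the MeXis null signal lay under the lowest signal well above background on that array, the bound is at least 2.99-fold lower. Another spot, marked as an outlier by the scanner software and left out, read 49.5 on MeXis null and 78.7 on WT (-0.74), was well above background on both arrays, and on MeXis null lay above the lowest WT spot. With it kept the mean was -3.03, and with normexp the difference was -0.92, under 2-fold. The SD describes repeat spots of 1 pool per genotype and not the spread between mice. The probe lies at chr5:104508149-104508208 (mm9, minus strand).
Sparcl1: agtgagatactgctcttttgagataaatat

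Periostin (Postn), a matricellular protein of injured and fibrous tissue, read 52.4 on MeXis null and 23.5 on WT (2.12-fold, 1.09). The Postn difference was 0.49 after local surface correction and 0.35 with normexp. Its other probe was above background on MeXis null only, at 43.3 on MeXis null against 10.1 on WT, at least 3.41-fold higher. Thrombospondin-1 (Thbs1) read 597 on MeXis null and 481 on WT (0.24), while its other probe, above background on MeXis null only, was at least 2.91-fold higher at 37.0 on MeXis null against 9.89 on WT. Postn and Thbs1 thus had dim probes with larger differences than the probe read for the gene. Tenascin-X (Tnxb) was above background on WT only, at 23.5 on MeXis null and 48.6 on WT, with a bound of 1.87-fold lower. Its measured difference of -1.12 was -1.49 with loess and -1.29 with quantile scaling, which took the bound past 2-fold, but -0.53 after local surface correction and -0.50 with normexp. Versican (Vcan) was above background on WT only at 46.5 on MeXis null and 52.4 on WT, 1.18-fold lower as measured.

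Fibronectin (Fn1), the adhesive glycoprotein that macrophages also make, gave a different direction on different probes. The probe read for the gene had 11709 on MeXis null and 13011 on WT, a difference of -0.22. The other probes above background lay above 0: 1645 on MeXis null against 809 on WT (0.95), 134 on MeXis null against 56.9 on WT (1.16), and 165 on MeXis null against 99.1 on WT (0.66). Taken as the median of its 4 probes Fn1 was at 0.81. Fn1 is therefore given no direction here. The probe read for the gene and the brightest of the others start 5306 bases apart on chromosome 1, at chr1:71632116-71632175 and chr1:71637422-71639659 (mm9, minus strand). They are shown because they carry the opposite signs.
Fn1, difference of -0.22: ggtgattatttttataagcacatgccaacg
Fn1, difference of 0.95: gatgcgattcatctaaatggtgccatgaca

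In the basement membrane group 2 of 7 measured genes passed 2-fold upward and 0 downward, and the median was 0.58. Lama4, the laminin alpha chain of vessel and muscle basement membranes, read 240.2 on MeXis null and 78.1 on WT (2.93-fold, 1.55). Lamb2, a laminin beta chain, read 162 on MeXis null and 63.0 on WT (2.45-fold, 1.29). Both exceeded 2-fold after local surface correction too, at 1.44 and 1.62. With normexp Lama4 was at 1.16 and Lamb2 at 0.80, under 2-fold. Lamb1, the other beta chain, read 437 on MeXis null and 275 on WT (0.60, and 1.05 after that correction), and its dim probe, above background on WT only, read 38.6 on MeXis null against 35.8 on WT. Perlecan (Hspg2) read 1323 on MeXis null and 850.3 on WT (0.57, and 0.83 after correction). Nidogen-1 (Nid1), which ties laminin to collagen IV, read 282 on MeXis null and 206 on WT (0.38). Nid2, above background on WT only, read 35.6 on MeXis null and 34.6 on WT, and Lama2 was not measured. These last genes lay inside the spread of repeat spots.

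The laminin gamma chain Lamc1 shows how far nearly the same sequence can differ. Its probe read for the gene had 1839 on MeXis null and 1763 on WT, a difference of -0.01. A probe shifted by 2 bases on the genome read 1631 on MeXis null and 997 on WT, a difference of 0.64. Of 58 overlapping bases 56 were identical. Another, dimmer probe read 74.9 on MeXis null and 65.7 on WT (0.12). The gap between the overlapping probes lay inside the 0.91 limit. The 2 probes lie at chr1:155066154-155066213 and chr1:155066156-155066215 (mm9, minus strand), and capitals mark bases identical in the other whole probe. The last 2 bases of the first stretch match bases of the other probe that lie beyond its stretch shown.
Lamc1, difference of -0.01: TGTGGCCCTTTTCAATGTGCCTTCACTTTA
Lamc1, difference of 0.64: acTGTGGCCCTTTTCAATGTGCCTTCACTT

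Among genes of collagen processing and secreted stromal factors, 3 of 5 measured were at least 2-fold higher. Sfrp2, a secreted modulator of Wnt signalling, had the highest difference of all 53 genes. It read 465 on MeXis null and 20.5 on WT, where it was not well above background. The measured difference was 21.6-fold (4.44), which is no lower limit. The difference was 4.08 after local surface correction and 2.66 with normexp, the lowest of its alternatives. It was read from 1 spot per array, and its relative Sfrp1 was not well above background on either. The Sfrp2 probe lies at chr3:83577864-83577923 (mm9, plus strand).
Sfrp2: tcggcatctaagtcttcaaacatttcgttg

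Serpinf1, which encodes the secreted serpin PEDF, was higher on each of its 3 probes. The probe read for the gene had 740.2 on MeXis null and 205 on WT (3.44-fold, 1.78, and 1.80 after local surface correction). The other probes read 385 on MeXis null against 103 on WT (1.84) and 179 on MeXis null against 60.4 on WT (2.83-fold). They lie along chromosome 11, minus strand, at chr11:75223568-75223627, chr11:75224421-75224480 and chr11:75229163-75229222 (mm9), and do not overlap. The first 30 bases of each are shown since Serpinf1 was the only matrix gene with 3 probes all above background on both arrays and all at least 2-fold higher.
Serpinf1, difference of 1.78: tgctctacagaacccccagagggaagctga
Serpinf1, difference of 1.84: aacttgaccatgatagaagagagcctcacc
Serpinf1, 2.83-fold: tcgaacagagtctgtcattcaccgggctct

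Pcolce, the enhancer of procollagen C-proteinase, was the best measured of the matrix genes, since both of its probes were printed repeatedly. With 10 usable spots, the first probe read 1171 at the lowest, 1818 at the median and 2089 at the highest on MeXis null, against 482, 745 and 996 on WT. Its paired differences had a mean of 1.15 ± 0.35 (SD over 10 spots) and ran from 0.54 to 1.67. The other probe, with 9 usable spots, read 1807.5, 2137 and 2319.5 on MeXis null, against 422, 898 and 1219 on WT. Its differences had a mean of 1.30 ± 0.60 (SD over 9 spots) and ran from 0.50 to 2.39. On either probe the signals of the 2 arrays, before scaling, did not overlap. Overlap was not counted over other repeatedly printed probes, so how common such separation is on these arrays is not known. The probes lie at chr5:138046379-138046438 and chr5:138046336-138046395 (mm9, minus strand) and share 17 bases, so they are not independent measures.
Pcolce, difference of 1.15: aacctaagcaagaggaagtgtccctcccaa
Pcolce, difference of 1.30: cctgatgtcctagccagatacagcctcaga

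**Figure D4:**
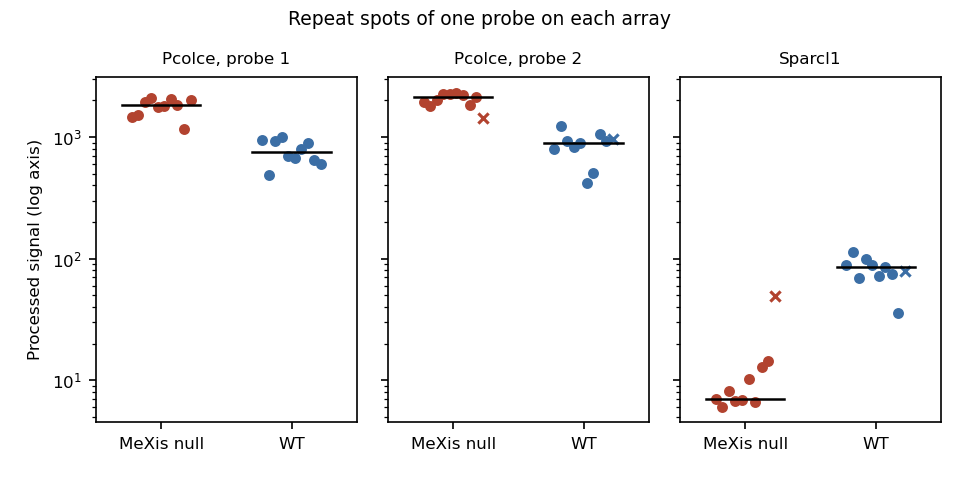
Processed signal (log axis) of the repeat spots of the 2 Pcolce probes and the Sparcl1 probe on the MeXis null array (red, left) and the WT array (blue, right); lines mark medians and crosses mark spots left out as outliers. The spots used do not overlap between arrays for any of the 3 probes, with Pcolce higher and Sparcl1 lower in MeXis null. Signals are before scaling, and overlap was not counted over other repeatedly printed probes.

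Serpinh1 (HSP47), the collagen chaperone of the endoplasmic reticulum, read 1368 on MeXis null and 765 on WT (0.77, and 0.83 after local surface correction), inside the spread of repeat spots. With normexp the Serpinh1 difference was 1.11, past 2-fold. Follistatin-like 1 (Fstl1) split by probe. The probe read for the gene had 10749 on MeXis null and 13502 on WT (-0.40), another had 5916 on MeXis null against 3314 on WT (0.77), and a dim one 59.3 on MeXis null against 55.3 on WT (0.03). Fn1, Fstl1 and Lamc1 were the 3 of 12 genes with several probes above background on both arrays whose probes had opposite signs. Over all 50 member probes above background on both arrays, 43 lay above 0.

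Of the receptor and contractile genes, Pdgfra, the PDGF receptor of fibroblasts, read 803 on MeXis null and 355 on WT (2.15-fold, 1.11). Its difference was 0.97 after local surface correction and 0.31 with normexp, both under 2-fold. Its other probe was above background on MeXis null only, at 29.7 on MeXis null against 5.05 on WT, at least 2.34-fold higher. Pdgfrb, the receptor of pericytes and smooth muscle, was not well above background, at 28.3 on MeXis null and 11.1 on WT. Smooth muscle actin (Acta2) read 10827 on MeXis null and 7883 on WT (0.39), but its other probe read 3184 on MeXis null against 911 on WT (1.73). The gap of 1.35 between these probes is wider than the 0.91 limit, which is set for 1 spot and not for a gap. By the median of its probes Acta2 was at 1.06.

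Other genes of the same pathways were taken as whole lists. Over all genes the shares were 9.17% higher and 5.08% lower by 2-fold or more, and 5.08% and 3.85% after local surface correction. Stromal collagens, measured as 12 genes, had 6 above 2-fold and 0 below it, and their median was 0.89. After local surface correction 4 were above 2-fold, at a median of 0.95. Col6a2 (1.33) and Col5a2 (at least 2.45-fold) were the highest, and Col3a1 (-0.13) and Col8a1 (0.50) the lowest with a value. Matrix proteases and their inhibitors had 6 of 14 higher by that size and 0 lower, at a median of 0.95. There Timp3 (1.70), a matrix-bound inhibitor, and Mmp14 (1.68), a membrane-bound collagenase, were highest. Adamtsl4 (-0.67) and Mmp9 (-0.45, above background on WT only) were lowest. After local surface correction 3 of the 14 passed 2-fold upward, with Timp3 at 2.04 and Mmp14 at 0.92. Genes of the matrix TGF-beta pathway had 2 of 16 higher and 1 lower, at a median of 0.34. Tgfbi (2.83-fold) and Ctgf (1.36), both TGF-beta-induced matricellular genes, were highest, and the receptor Tgfbr2 (-1.16) and the inhibitor Smad7 (-0.72) lowest. After local surface correction 4 of the 16 were higher and 0 lower, with Tgfbr2 at -0.80. Integrins and matrix receptors had 4 of 16 higher and 0 lower, at a median of 0.28. The syndecan Sdc2 (5.61-fold as measured, above background on MeXis null only) and the collagen receptor Ddr1 (1.95) were highest. The integrin chains Itgav (-0.65, a bound) and Itga6 (-0.65) were lowest. After local surface correction 3 of these 16 were higher and 1 lower, Itga6 at -1.17.

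Markers of other cell types also differed between the pools. Mesothelial markers outside the matrix list had 7 of 11 measured above 2-fold and 0 below it, or 6 and 0 after local surface correction. Their median was 1.25 and their summed signal 2941 on MeXis null and 1149 on WT. The mesothelial genes Cldn15, Gpm6a and Krt7 were not well above background. Fibroblast markers had 2 of 6 measured higher (Prrx1 and Pdpn), also after local surface correction, and a median of 0.42. Their summed signal was 29632 on MeXis null and 9649 on WT. Nearly all of that sum was Pdpn alone, at 28415 on MeXis null and 8684 on WT, so it says little of the other fibroblast markers. Clec3b, Dpep1, Dpt, Meox1, Meox2, Pi16, Tcf21, Twist1 and Twist2 were not well above background on MeXis null or WT. Pericyte and smooth muscle markers had 4 of 9 measured higher (Tagln, Des, Kcnj8 and Synpo2), or 3 after local surface correction. Their median was 0.64 and their sums 17080.3 on MeXis null and 16364 on WT, with Abcc9, Cnn1, Lmod1 and Rgs5 not above background. Most of these sums came from Mcam, at 12148 on MeXis null and 14506 on WT (-0.33). Of the 6 such markers above background on both arrays, Mcam was the 1 below 0. Endothelial markers had 2 of 6 higher and 1 lower, or 1 and 0 after local surface correction. Their median was 0.23 and their sums 7489 on MeXis null and 6806 on WT, and Cdh5, Cldn5, Emcn, Tek and Tie1 were not above background. Of 13 macrophage markers on the array 12 were above background on both, with 1 higher and 1 lower, a median of 0.11, and sums of 459833 on MeXis null and 311182 on WT, and Timd4 was not above background. Cd68 and Lyz2 carried most of those sums: without them the other 10 summed to 84467 on MeXis null and 123687 on WT. Most of that remainder was in turn Csf1r, at 55381.5 on MeXis null and 95701 on WT. By difference, 6 of the 12 lay above 0 and 6 below it. Lyz2, the marker above 2-fold, was at 1.25 and at 0.52 after local surface correction. Mertk, the marker counted as lower, was at -1.94 and at -1.13 after that correction. The part of these cell types in the matrix differences was not tested.

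**Figure D5:**
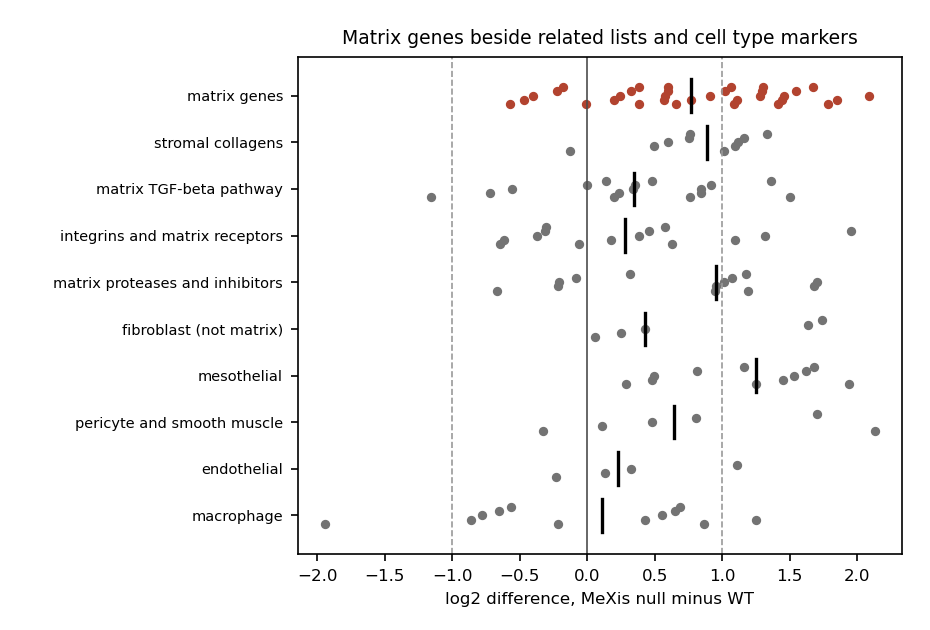
Difference (log2, MeXis null minus WT) of every gene above background on both arrays in the matrix set (red), in 4 related lists and in 5 cell type marker lists (grey); black bars are medians and dashed lines mark 2-fold. Medians are 0.77 for the matrix genes, 0.89 for stromal collagens and 1.25 for mesothelial markers, and 0.11 for macrophage markers.

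Promoter sequence was read for 35 of the 53 genes from RefSeq (GRCm38.p6), over the 250 bases before the start, on both strands. GGGCGG, the core of the GC box bound by Sp factors, was present in 17 of 35 promoters of the matrix genes, in 6 of the 16 that were at least 2-fold higher, and in 32.9% of all 27025 promoters. CCAAT was present in 10 of the 35, in 2 of the 16 and in 34.5% of all. TATAAA was present in 4 of the 35, in 1 of the 16 and in 3504 of all 27025. TGANTCA, the AP-1 motif, was present in 2 of the 35, in 1 of the 16 and in 6.87% of all, and CATTCC, the TEAD motif, in 3 of the 35, in 1 of the 16 and in 12.6% of all. A match is a description of these letters and no evidence of binding. Of the 10 matrix genes that stayed at least 2-fold higher in the 11 alternatives named above, 8 had a promoter sequence and 5 held GGGCGG. Those 5 are shown as 60 bases each, 5′ to 3′ on the gene's strand, with the motif or its reverse complement in capitals, at chrX:73483540-73483599 (plus) for Bgn, chr11:28853145-28853204 (plus) for Efemp1, chr2:125506591-125506650 (minus) for Fbn1, chr12:84876592-84876651 (minus) for Ltbp2 and chr5:137611432-137611491 (minus) for Pcolce.
Bgn: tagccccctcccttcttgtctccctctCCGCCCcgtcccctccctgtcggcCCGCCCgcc
Efemp1: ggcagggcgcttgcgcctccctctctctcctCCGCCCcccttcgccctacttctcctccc
Fbn1: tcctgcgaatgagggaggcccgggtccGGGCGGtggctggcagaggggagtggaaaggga
Ltbp2: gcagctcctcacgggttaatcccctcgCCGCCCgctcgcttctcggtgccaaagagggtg
Pcolce: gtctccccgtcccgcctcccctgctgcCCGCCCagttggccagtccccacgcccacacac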

How the data were processed

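Total RNA was extracted with Trizol and columns and labelled with Cy3, per the labels' protocols. The deposited scanner files hold each spot's intensity on a linear scale, which the headers give as background-subtracted in Agilent Feature Extraction version 11.5.1.1. Intensities of the deposited series matrix matched the processed signals at each of 62976 features (tolerance 1e-06; medians 17.0 on MeXis null and 12.9 on WT), so they are linear and uncentred. Probe positions are given in mm9, per the file headers. No mm9 annotation was used, so exons and UTRs are not given.

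Log2 processed signals were scaled to each array's 75th percentile of probes that both arrays measured well above background. Controls and outlier spots were left out, 2 of the latter among the matrix genes, and no spot was saturated. Spots of a probe were averaged on the log2 scale. Non-control spots well above background numbered 26257 on MeXis null and 28463 on WT. For a bound, the bright value was divided by the dim probe's signal or, where larger, by the dim array's lowest signal that was well above background. Slide and scan were shared by the arrays. The number of arrays limits the precision.

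All 53 genes are named. The genes, roles and marker lists were chosen with earlier results of these data known. Other lists are given as counts with their 2 highest and 2 lowest members. Marker genes of cell types named individually, the macrophage sum without Cd68 and Lyz2, and the Sparc, Fn1 and Acta2 probe medians, were chosen after their values were seen. The steps were tested on simulated data with 200 changed genes. Python 3.11.15, pandas 2.3.3 and limma 3.58.1 (normexp) were used.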

Additional observations from a re-analysis of the deposited data

How the results depend on the processing

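The counts of 18 higher and 2 lower and the median of 0.77 were recomputed under other choices of background correction, scaling, position, outliers, dim probes, probe choice and threshold. With normexp background correction and an offset of 50, 12 genes were higher (5.21% of all genes measured), 0 were lower (Lum and Sparcl1 no longer reached 2-fold) and the median was 0.45. Normexp moved 17 of the 27 member values that moved by more than the SD between repeat spots (0.47), among 504 compared. With no filter on dim probes the median was 0.66, and that of all genes 0.48. With a signal of at least 100 on both arrays 20 genes were left, of which 7 were above 2-fold (6.24% of all genes) and 0 below it, at a median of 0.58. By the median of a gene's probes the median was 0.92. At 3-fold, 6 genes were higher (2.87% of all genes) and 1 lower, by the construction of the threshold. The other alternatives gave 15 to 23 higher and 2 or 3 lower, and the share of all genes that was higher moved as well, to 5.08% with local surface correction (15 matrix genes), 17.8% with no filter on dim probes (20 of 53) and 19.7% at 1.5-fold (23). None of the 20 genes counted as higher or lower changed sign. Of the others, 7 did under at least 1 alternative: Efemp2, Eln, Fn1, Fstl1, Lamc1, Lox and Nid2. Bgn, Efemp1, Fbn1, Lama4, Loxl1, Ltbp2, Pcolce, Serpinf1, Sfrp2 and Sparc were at least 2-fold higher in all 11 alternatives that kept that size and did not require a signal of 100. Where a signal of 100 was required, Bgn, Efemp1, Fbn1, Lama4 and Sfrp2 fell out, as their WT signals were under 100. Some of those 11, the series matrix values among them, could drop no gene. Other causes of these shifts were not tested. No paired analysis was possible because each genotype has 1 array. Dim genes on MeXis null are limited by its higher background floor, 27.3 against 12.1 on WT.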
